A study of Mus musculus with 4 samples.

Results

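The BCL2 family sets how readily a cell enters the mitochondrial death pathway, and 9 of its genes were followed here through bone marrow and tumor leukocytes of S100a8 knockout and control mice. The members were chosen by symbol: the survival genes Bcl2, Bcl2l1, Mcl1, Bcl2a1a, Bcl2a1b and Bcl2a1d, the BH3-only genes Bcl2l11 and Pmaip1, and the effector Bax. All 9 were found in all 4 libraries, where 12382 genes of bone marrow and 13810 genes of tumors had at least 50 UMIs (unique molecular identifiers, 1 per captured RNA molecule) over both libraries of the tissue. KO mice were S100a8fl/fl Vav-Cre+/-, in which Cre expressed in the hematopoietic system removes S100a8 from blood cells, and WT mice were S100a8fl/fl Vav-Cre-/-, which carry the same floxed alleles without Cre. Single-cell RNA was sequenced from CD45+ cells sorted from tumor-free bone marrow or from tumors of LLC cells, a Lewis lung carcinoma line, with 3 mice pooled in each of the 4 libraries (1 KO and 1 WT library per tissue). Ages and sexes were not given in the sources used here, and no drug was named for any group. With 1 library per group there was no replicate check and no test, so every difference below is one between pooled libraries and its interval covers counting error only.

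MCL1, BCL-2, BCL-XL (from Bcl2l1) and A1 (from the Bcl2a1 copies) hold the effectors BAX and BAK in check at the outer mitochondrial membrane. BH3-only proteins such as BIM (from Bcl2l11) and NOXA (from Pmaip1) bind these guardians and free the effectors, which then release cytochrome c. BIM binds all guardians, whereas NOXA binds mainly MCL1 and A1. Neutrophils are short-lived cells that depend on MCL1, a protein that turns over fast, and they also express A1, which inflammatory signals induce. Naive lymphocytes and natural killer (NK) cells depend on BCL-2 and MCL1, and developing erythroid cells on BCL-XL.

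A1 is encoded in the mouse by near-identical gene copies on chromosome 9, so their sequences decide how far the copies can be told apart in these counts. In the GRCm38 annotation Bcl2a1a lies at chr9:88956900-88962419 on the plus strand, Bcl2a1b at chr9:89199209-89207827 on the plus strand and Bcl2a1d at chr9:88723285-88731914 on the minus strand. Their promoters, from RefSeq on GRCm38.p6 (250 bases before to 50 after the start, on the strand of the gene), are shown because the A1 results below rest on the sum of the copies, whose start regions differ in few letters. They lie at chr9:88956670-88956969 for Bcl2a1a, chr9:89199023-89199322 for Bcl2a1b and chr9:88731801-88732100 for Bcl2a1d, and capitals mark the letters that differ from either other copy.
Bcl2a1a: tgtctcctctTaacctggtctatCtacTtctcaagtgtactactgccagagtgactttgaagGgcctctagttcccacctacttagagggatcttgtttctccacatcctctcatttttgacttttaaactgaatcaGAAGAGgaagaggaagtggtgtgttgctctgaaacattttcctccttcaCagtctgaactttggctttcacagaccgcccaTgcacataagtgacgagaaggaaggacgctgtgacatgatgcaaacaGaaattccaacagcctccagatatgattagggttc
Bcl2a1b: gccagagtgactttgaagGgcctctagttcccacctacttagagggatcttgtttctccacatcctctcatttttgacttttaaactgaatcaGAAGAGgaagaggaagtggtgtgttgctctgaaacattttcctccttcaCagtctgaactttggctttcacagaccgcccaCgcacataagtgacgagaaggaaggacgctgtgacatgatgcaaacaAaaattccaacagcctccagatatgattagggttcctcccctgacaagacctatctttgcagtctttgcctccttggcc
Bcl2a1d: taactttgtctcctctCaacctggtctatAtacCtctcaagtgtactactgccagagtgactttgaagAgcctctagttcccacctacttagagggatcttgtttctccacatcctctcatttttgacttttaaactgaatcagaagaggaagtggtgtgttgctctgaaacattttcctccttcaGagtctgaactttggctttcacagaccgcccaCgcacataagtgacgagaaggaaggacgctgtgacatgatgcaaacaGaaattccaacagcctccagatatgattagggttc
Over their aligned stretches the promoters were 99.2% identical between Bcl2a1a and Bcl2a1b, 98.0% between Bcl2a1a and Bcl2a1d, and 98.8% between Bcl2a1b and Bcl2a1d. The letters GAGGAAGT, a core bound by the ETS factor PU.1, occurred 1 time in each copy on either strand and are found in 3.20% of 32851 mouse promoters of this length. They were not found in the Mcl1 promoter. The NF-kB letters, GGG and CC with 5 bases of any kind between them, matched 2 times in Bcl2a1b, 3 times in Mcl1 and 0 times in Bcl2a1a and Bcl2a1d, and are found in 50.8% of all promoters. Both matches in Bcl2a1b are 1 stretch read on either strand, and the windows of Bcl2a1a and Bcl2a1d end inside the like stretch, so this difference between the copies cannot be read. Neither the C/EBP letters TTGCNNAA, in 10.8% of promoters, nor the STAT letters TTCNNNGAA, in 8.30%, occurred in any of these 4 windows. The longest protein-coding GENCODE transcripts of the copies were 98.2% to 99.1% identical. Of all 60-base windows, 62.0% of Bcl2a1a, 51.7% of Bcl2a1b and 74.3% of Bcl2a1d were also found in another copy, so a read can often not be assigned to 1 copy and the split between copies is uncertain. The copies are therefore also given as a sum, called Bcl2a1 below. The other members lie on other chromosomes, among them Bcl2 at chr1:106538178-106714274, Bcl2l1 at chr2:152780668-152831728, Mcl1 at chr3:95658788-95663176, Bcl2l11 at chr2:128126038-128162547 and Bax at chr7:45461697-45466898.

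After filters the libraries held 10383 KO and 7541 WT bone marrow cells (medians of 2773 and 2246 UMIs) and 10441 KO and 10541 WT tumor cells (medians of 7932 and 6401 UMIs). At least 1 UMI of any member was seen in 9205 of the KO and 5839 of the WT bone marrow cells, and in 10367 of the KO and 10401 of the WT tumor cells. S100a8 fitted the genotype labels, with 0.123 CPM (UMIs per 1000000 UMIs of the summed cells) in KO against 68416 CPM in WT bone marrow, and 0.902 CPM in KO against 136 CPM in WT tumors. The CD45 gene Ptprc was seen in 89.7% of KO and 79.4% of WT bone marrow cells and in 91.5% of KO and 90.9% of WT tumor cells. A tumor cluster led by Rhox5 and Krt8 (144 KO and 69 WT cells) had it in only 29.9% and 21.7% of its cells. Any 2 libraries shared 21 to 46 barcodes. Classes come from a new clustering of the cells, carry "-like" names after their markers, and need not cover the same cells as the study's own. The tumor monocytic clusters 0, 1 and 2 did not meet the naming rule and are given by number: cluster 0 was led by Lyz2, Chil3 and Thbs1, cluster 1 by Thbs1, Cxcl2 and Cxcl3, and cluster 2 by Lyz2, Cd74 and H2-Ab1. Classes held very different shares of the tumor libraries: mature neutrophil-like cells numbered 3109 in KO and 225 in WT tumors, T-like cells 1510 in KO and 3805 in WT, and NK-like cells 262 in KO and 1844 in WT. Differences inside a class were counted as past the fold when the ratio of CPM was beyond 1.5-fold, its exact 95% interval left out 1 and both libraries together held at least 50 UMIs. Classes needed 100 cells in each library to be compared.

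In bone marrow, 52 of 90 combinations of a member and a class reached 50 UMIs, and 9 of these were higher and 1 lower in KO cells past the fold. Mature neutrophil-like cells held 4 of them: 4 of 7 measured members were higher and none lower, where 12.8% of all measured genes of that class were higher and 16.7% passed in either direction. Bcl2a1a and Bcl2a1b are among the 4, and counts of these near-identical copies cannot be fully told apart. With at least 200 UMIs only Pmaip1 passed, and within clusters at WT weights only Bcl2a1b and Pmaip1. This count is therefore not read as differing from the background. In immature neutrophil-like cells 1 of 5 was higher, against 6.74% of all genes (8.32% in either direction), and in granulocyte progenitor-like cells 1 of 5, against 2.67% (4.18%). B-like cells had 1 of 5 higher, against 2.57% of all genes (6.91% in either direction), and B precursor-like cells 1 of 5 lower, against 5.62% (12%). Erythroid-like cells had 1 of 4 higher, against 2.41% (4.38%), and plasmacytoid dendritic cell-like cells 1 of 5 higher, against 4.35% (7.82%). With 1 member each, these classes cannot be read as differing from the background. No measured member passed in T or NK-like cells (0 of 6, all genes 8.15%), monocyte-like cells (0 of 5, 5.8%) or hematopoietic stem and progenitor-like cells (0 of 5, 7.37%).

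In tumors, 80 of 81 combinations were measured, with 8 higher and 12 lower in KO cells. Of the 12 lower ratios, 6 were those of Bcl2 in myeloid classes, where it stood under 25 CPM in both libraries. Macrophage-like cells had 4 higher and 1 lower of 9, where 8.95% of all genes were higher and 9.53% lower (18.5% in either direction). Bcl2a1a and Bcl2a1d are among the 4, and counts of these near-identical copies cannot be fully told apart. With classes drawn from the WT library alone, Mcl1 stayed higher and Pmaip1 became so. Bcl2a1a and Bcl2l11 then did not pass, and Bcl2a1d was lower. The count in macrophage-like cells is therefore not read as differing from the background. Mature neutrophil-like cells had 2 higher and 2 lower of 9, where 6.26% of all genes were higher and 25.4% lower (31.7%). Myeloid cluster 0 had 4 lower of 9, against 10.8% of all genes (14.7% in either direction). Myeloid cluster 1 had 1 higher and 2 lower, against 4.94% and 11.2% (16.2%), and monocyte-like cells had 2 lower, against 17.8% (23.5%). T-like cells had 1 higher of 9, against 6.13% (9.47%), and conventional dendritic cell 2-like cells 1 lower of 9, against 6.33% (12.1%). Neither myeloid cluster 2 (0 of 9, all genes 8.76%) nor NK-like cells (0 of 8, 9.97%) had any.

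**Figure D1:**
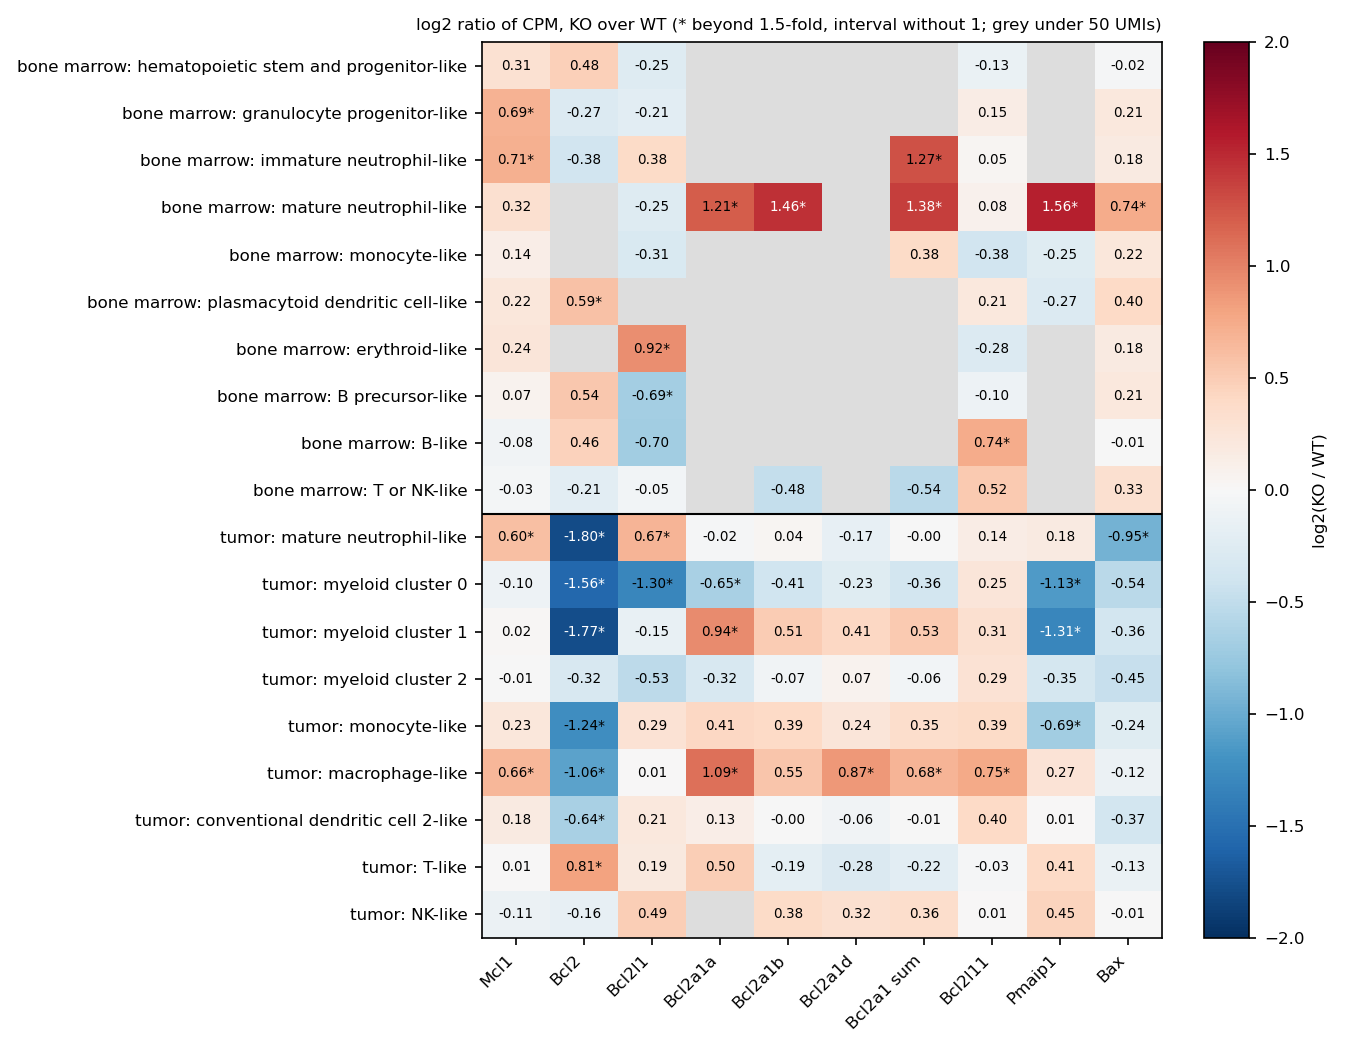
Log2 ratio of CPM, KO over WT, for each member and for the summed Bcl2a1 copies (columns) in each compared class (rows), with bone marrow above the line and tumor below it; red is higher in KO, blue lower in KO, an asterisk marks a ratio past the fold and grey cells had under 50 UMIs. Bone marrow mature neutrophil-like cells carry asterisks at Bcl2a1a, Bcl2a1b, Pmaip1 and Bax, and Bcl2 is blue in all tumor myeloid rows.

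Mcl1, whose product is the guardian neutrophils depend on, climbed through the bone marrow neutrophil lineage in both genotypes and stood higher in KO cells, more so in the early clusters than in the late ones. Ordered by the balance of mature over immature markers, with the Elane and Mpo cluster placed first, the 10 clusters held 161, 223, 292, 336, 473, 754, 1322, 1771, 2285 and 1971 CPM in KO bone marrow. The same clusters held 99.6, 132, 181, 245, 357, 556, 1036, 1330.3, 2088 and 1785 CPM in WT bone marrow. The KO library was thus above the WT library in 10 of 10 clusters, and relative to the median gene of each cluster in 9 of 10, with log2 differences of 0.65 in the first and -0.04 in the last, and in both libraries the peak was in cluster 2, led by Il1b and Fgl2. In granulocyte progenitor-like cells Mcl1 stood at 161 CPM in KO against 99.6 CPM in WT cells, a ratio of 1.62 (95% interval 1.39 to 1.89), and in immature neutrophil-like cells at 414 CPM in KO against 253 CPM in WT cells, a ratio of 1.64 (95% interval 1.56 to 1.72). In mature neutrophil-like cells, with 1701 CPM in KO against 1367 CPM in WT, the ratio was 1.24 (95% interval 1.2 to 1.29) and did not pass the fold. S100a8 and S100a9 themselves take a large part of WT neutrophil RNA: they and the mitochondrial, ribosomal and hemoglobin genes made up 25.2% of the UMIs in KO and 37.6% in WT immature neutrophil-like cells, and the median gene there had a log2 ratio of 0.21. Relative to that median the log2 ratio of Mcl1 was 0.50 in immature and 0.10 in mature neutrophil-like cells. With those genes taken out of the totals the immature ratio was 1.36, no longer past the fold, as was that within clusters, 1.39. In progenitor-like cells the ratio was 1.44 when classes were drawn from the WT library alone. A list of 12 immediate early genes, chosen after values were seen because such genes respond to cell handling, summed to 664 CPM in KO against 450.5 CPM in WT granulocyte progenitor-like cells. It summed to 2379 CPM in KO against 1319 CPM in WT immature and to 10661 CPM in KO against 8931 CPM in WT mature neutrophil-like cells; its part in the Mcl1 result was not tested.

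**Figure D2:**
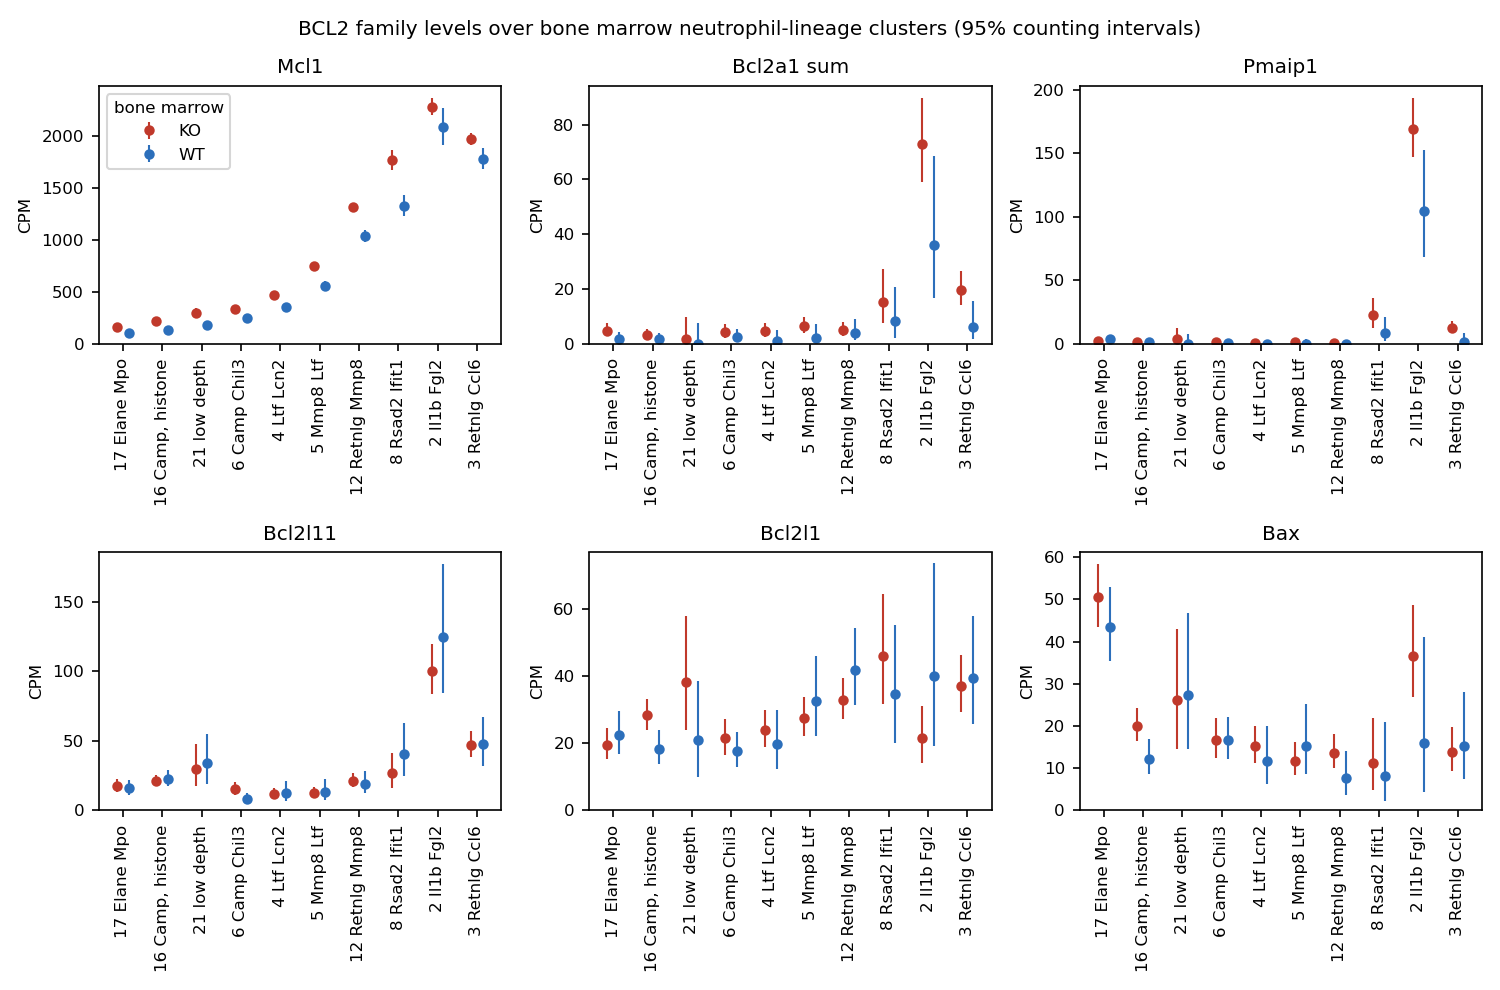
CPM of 6 members (panels) in 10 bone marrow clusters of the neutrophil lineage, from the progenitor-like cluster on the left to the mature clusters on the right, with KO in red left of WT in blue and 95% counting intervals as bars. Mcl1 climbs along the clusters with KO above WT throughout, whereas Bcl2a1, Pmaip1 and Bcl2l11 stand highest in the Il1b and Fgl2 cluster.

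The summed Bcl2a1 copies were scarce in bone marrow neutrophils and were higher in KO cells. Mature neutrophil-like cells held 162 KO and 22 WT UMIs, or 21.1 CPM in KO against 8.11 CPM in WT, a ratio of 2.6 (95% interval 1.66 to 4.27); immature ones held 67 KO and 15 WT UMIs, or 4.38 CPM in KO against 1.81 CPM in WT, a ratio of 2.42 (95% interval 1.37 to 4.55). Within the mature class Bcl2a1a gave 59 KO and 9 WT UMIs with a ratio of 2.32 (95% interval 1.14 to 5.32), and Bcl2a1b gave 78 KO and 10 WT UMIs with a ratio of 2.76 (95% interval 1.42 to 5.98). The interval of Bcl2a1a came to include 1 with abundant genes out of the totals (ratio 2), with thinned cells (1.9) and within clusters (1.99). The Il1b and Fgl2 cluster held 863 KO and 234 WT cells, and the sum there stood at 73.1 CPM in KO against 36.1 CPM in WT (92 KO and 9 WT UMIs, out of 162 KO and 22 WT UMIs in the class). The ratio there was 2.02 (95% interval 1.02 to 4.56). In the Retnlg and Ccl6 cluster it was 19.5 CPM in KO against 6.1 CPM in WT, and in the interferon-marked Rsad2 and Ifit1 cluster 15.3 CPM in KO against 8.15 CPM in WT. The Il1b and Fgl2 cluster thus had the highest sum of the lineage in both libraries. The median gene of the mature class had a log2 ratio of 0.22, and relative to it the Bcl2a1 sum was 1.16, Pmaip1 1.34 and Bax 0.52 on the log2 scale.

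Pmaip1, which lies at chr18:66458533-66465565 and encodes the MCL1 antagonist NOXA, had the largest ratio among members with at least 50 UMIs in bone marrow mature neutrophil-like cells, at 33.7 CPM in KO against 11.4 CPM in WT cells (258 KO and 31 WT UMIs), a ratio of 2.94 (95% interval 2.02 to 4.42). It was almost confined to 1 mature cluster in both libraries. The Il1b and Fgl2 cluster held 213 KO and 26 WT UMIs, or 169 CPM in KO against 104 CPM in WT, and the ratio inside this cluster was 1.62 (95% interval 1.08 to 2.54). This cluster made up more of the KO library, and within clusters at WT weights the class ratio was 1.91. The Retnlg and Ccl6 cluster stood at 12.4 CPM in KO against 1.52 CPM in WT, the Rsad2 and Ifit1 cluster at 22.3 CPM in KO against 8.15 CPM in WT, and the 7 earlier clusters at no more than 3.48 CPM in either library. Bcl2l11, which encodes BIM, peaked in the same cluster but with no excess in KO cells, at 100.1 CPM in KO against 124 CPM in WT. Over the mature class it stood at 41.7 CPM in KO against 39.5 CPM in WT cells, a ratio of 1.06 (95% interval 0.847 to 1.33), and over the immature class at 16.5 CPM in KO against 15.9 CPM in WT. The pair of BH3-only genes therefore peaked in the same cluster but did not share a genotype difference past the fold.

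Bax, the effector that opens the mitochondrial membrane, ran the other way along the lineage, with its highest level in granulocyte progenitor-like cells, at 50.5 CPM in KO against 43.5 CPM in WT cells. Immature neutrophil-like cells held 16.8 CPM in KO against 14.9 CPM in WT. The mature class had 17.2 CPM in KO against 10.3 CPM in WT (132 KO and 28 WT UMIs), a ratio of 1.67 (95% interval 1.1 to 2.6). The call was lost with abundant genes out of the totals (1.44), with classes drawn from the WT library alone (1.42) and within clusters (1.49), and with thinned cells, where the ratio was 1.86 with 1 inside its interval. Bcl2l1 (BCL-XL) was low and even, at 26.3 CPM in KO against 20.2 CPM in WT immature and 33.4 CPM in KO against 39.8 CPM in WT mature neutrophil-like cells, and neither ratio passed the fold. Bcl2 itself was nearly unseen in mature neutrophil-like cells, with 12 KO and 5 WT UMIs in all, in 0.288% of KO and 0.297% of WT cells. At this depth no genotype difference in Bcl2 was detectable there.

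In the other bone marrow classes Bcl2 was highest in T or NK-like cells, at 562 CPM in KO against 650.4 CPM in WT cells, followed by plasmacytoid dendritic cell-like cells at 189 CPM in KO against 125 CPM in WT, stem and progenitor-like cells at 148 CPM in KO against 106 CPM in WT and B-like cells at 142 CPM in KO against 104 CPM in WT. B precursor-like cells held 12.2 CPM in KO against 8.37 CPM in WT. The WT values of the plasmacytoid, progenitor-like and B-like classes differed by less than their spread from counting. Plasmacytoid dendritic cell-like cells were the 1 class past the fold, at 1.51 (95% interval 1.23 to 1.85), a call lost with at most 5% mitochondrial UMIs (1.44) and with classes drawn from the WT library alone (1.45). Erythroid-like cells held 4 KO and 7 WT UMIs of Bcl2. Bcl2l1 was highest in B precursor-like cells, at 94.6 CPM in KO against 152 CPM in WT, a ratio of 0.621 (95% interval 0.531 to 0.725). That class was unevenly made up: the cluster richest in Bcl2l1 (cluster 22) held 201 KO and 705 WT cells, with 251 CPM in KO against 296 CPM in WT, and inside it the ratio was 0.849 (95% interval 0.65 to 1.1). At WT weights of the clusters the class ratio was 0.888, not past the fold. In erythroid-like cells Bcl2l1 stood at 24 CPM in KO against 12.6 CPM in WT (81 KO and 32 WT UMIs), a ratio of 1.9 (95% interval 1.25 to 2.95), with median depths of 4799 KO and 12182 WT UMIs per cell. Bcl2l11 was higher in KO B-like cells, at 76.7 CPM in KO against 45.8 CPM in WT, a ratio of 1.68 (95% interval 1.15 to 2.44). It was highest of all in T or NK-like cells, at 243 CPM in KO against 169.7 CPM in WT, a ratio of 1.43 (95% interval 1.18 to 1.74) that did not pass the fold. B precursor-like cells had no UMI of any Bcl2a1 copy in 473 KO cells, which limits cells with a UMI, not cells that express the gene, to a share of up to 0.634%, and none in 1197 WT cells.

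In tumors the survival genes divided the cells between them. Mcl1 led in mature neutrophil-like cells, at 4620.0 CPM in KO against 3048 CPM in WT cells, and was lowest in NK-like cells, at 286 CPM in KO against 310.0 CPM in WT. The Bcl2a1 sum was highest in migratory dendritic cell-like cells, at 4607 CPM in KO against 5060.5 CPM in WT, then in mature neutrophil-like cells at 2215 CPM in KO against 2218 CPM in WT, T-like cells at 1489.7 CPM in KO against 1732 CPM in WT and conventional dendritic cell 2-like cells at 1653 CPM in KO against 1669 CPM in WT. Plasmacytoid dendritic cell-like cells held 172 CPM in KO against 48 CPM in WT from 28 KO and 157 WT cells, and basophil or mast-like cells 20.9 CPM in KO against 106 CPM in WT from 1 KO and 19 WT UMIs. Bcl2 was highest in NK-like cells, at 232 CPM in KO against 259 CPM in WT, and second in T-like cells. Bcl2l11 also peaked in NK-like cells, at 640.0 CPM in KO against 634 CPM in WT, followed by mature neutrophil-like cells at 457 CPM in KO against 414 CPM in WT. Pmaip1 was highest in 2 dendritic cell classes, with 124 CPM in KO against 100.2 CPM in WT conventional dendritic cell 1-like and 122 CPM in KO against 159.8 CPM in WT migratory dendritic cell-like cells. NK-like cells thus combined high Bcl2 and Bcl2l11 with low Mcl1, and neutrophil-like cells high Mcl1 and Bcl2a1 with almost no Bcl2.

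**Figure D3:**
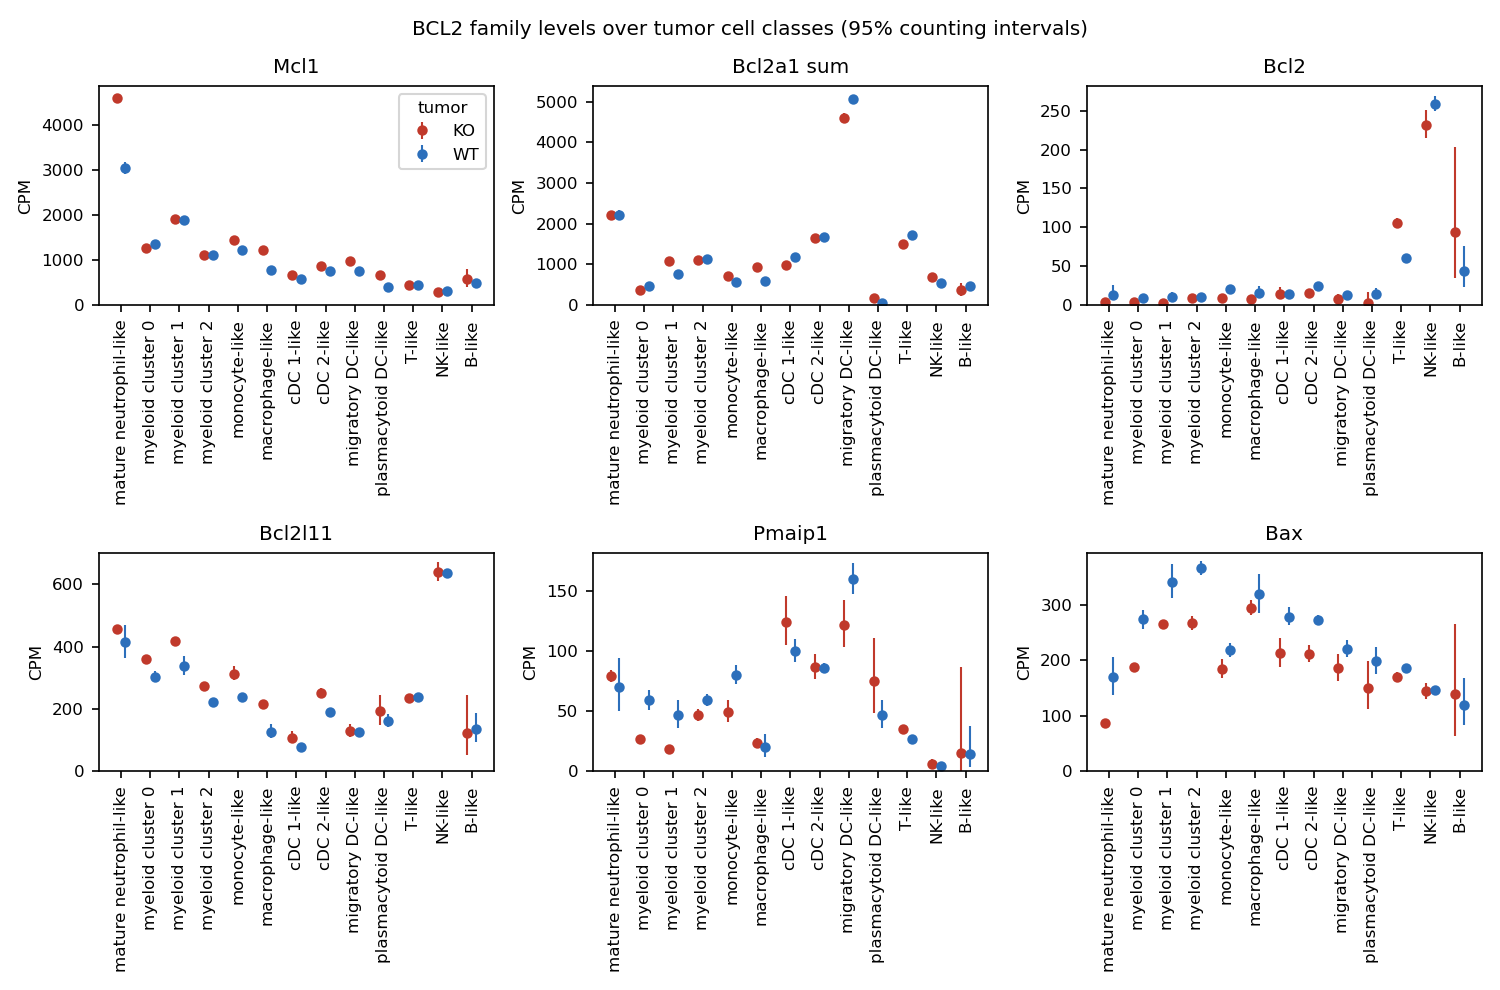
CPM of 6 members (panels) in 13 tumor cell classes, with KO in red left of WT in blue and 95% counting intervals as bars. Mcl1 stands highest in mature neutrophil-like cells, Bcl2a1 in migratory dendritic cell-like cells, and Bcl2 and Bcl2l11 in NK-like cells; B-like and plasmacytoid dendritic cell-like cells were few and have wide intervals.

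In tumor mature neutrophil-like cells Mcl1 and Bcl2l1 were higher and Bax lower in KO cells, while the Bcl2a1 copies were level. The Bcl2 ratio was also past the fold, but it rested on few WT UMIs and no change in Bcl2 is read from it, as given below. The class held 3109 KO and 225 WT cells, so the WT side limits the precision. Mcl1 stood at 4620.0 CPM in KO against 3048 CPM in WT cells, a ratio of 1.52 (95% interval 1.45 to 1.59), and Bcl2l1 at 101 CPM in KO against 63.2 CPM in WT (1341 KO and 38 WT UMIs), a ratio of 1.59 (95% interval 1.16 to 2.26). Bax stood at 87.9 CPM in KO against 169.7 CPM in WT, a ratio of 0.518 (95% interval 0.423 to 0.641). The summed Bcl2a1 copies stood at 2215 CPM in KO against 2218 CPM in WT, a ratio of 0.998 (95% interval 0.945 to 1.06). Bcl2l11 had a ratio of 1.1 and Pmaip1 one of 1.13, neither past the fold. The median gene in this class had a log2 ratio of -0.33, so relative to all genes Mcl1 was 0.93, the Bcl2a1 sum 0.33 and Bax -0.62 on the log2 scale. The Mcl1 ratio sat at the edge of the fold and fell below it with abundant genes out of the totals (1.45), with doublets kept (1.48) and as a mean over cells (1.4). The Bcl2l1 call was lost with doublets kept (1.38) and with thinned cells (3.35, with 1 inside its interval), where 14 WT cells remained. In cluster 12, which held 1923 of the KO and 162 of the WT cells, Mcl1 stood at 4594 CPM in KO against 3193 CPM in WT and Bax at 64.8 CPM in KO against 107 CPM in WT, a ratio of 0.606 (95% interval 0.45 to 0.835). The Bcl2a1 sum differed more between the neutrophil clusters than between genotypes: cluster 12 had 2701 CPM in KO against 2618 CPM in WT and cluster 13 1214 CPM in KO against 1128 CPM in WT. The immediate early list summed to 25067 CPM in KO against 14469.9 CPM in WT cells of this class, and its part in the Mcl1 result was not tested. Marker lists of T and NK cells also differed between KO and WT cells of this class, as given below. Their part in the Bax ratio was not tested.

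Bcl2 was lower in KO cells of every tumor myeloid class except myeloid cluster 2 and was low in all of them. The KO and WT levels were 3.83 CPM in KO against 13.3 CPM in WT mature neutrophil-like cells (51 KO and 8 WT UMIs), 3.21 CPM in KO against 9.48 CPM in WT cells of myeloid cluster 0, and 3 CPM in KO against 10.3 CPM in WT cells of myeloid cluster 1. They were 8.71 CPM in KO against 20.6 CPM in WT monocyte-like cells, 7.14 CPM in KO against 14.9 CPM in WT macrophage-like cells and 15.9 CPM in KO against 24.9 CPM in WT conventional dendritic cell 2-like cells. The ratios of these 6 classes ran between 0.288 and 0.64, and myeloid cluster 2 had 0.8. In the Rhox5 and Krt8 cluster, which is poor in the CD45 gene, Bcl2 stood at 12.6 CPM in KO against 19.8 CPM in WT cells. With cells thinned to 4194 UMIs it was seen in 4.35% of the KO and 9.09% of the WT cells there, against 1.02% to 8.06% of KO and 2.68% to 8.81% of WT cells of the 7 myeloid classes (mature neutrophil-like WT cells left out, since 14 remained). Apart from conventional dendritic cell 2-like KO cells, all of these lay under the shares of that cluster. The shares of that cluster rest on only 92 KO and 55 WT cells, too few to rank the myeloid classes against them. Whether cells of that cluster express Bcl2 themselves is not known from these data, so no expression of Bcl2 and no change in it is read from the myeloid shares. Marker lists of T and NK cells were summed for the 6 classes past the fold. The T list summed to 31.3 CPM in KO against 331 CPM in WT mature neutrophil-like cells and the NK list to 10.1 CPM in KO against 44.9 CPM in WT. In macrophage-like cells the T list summed to 209 CPM in KO against 328 CPM in WT and the NK list to 12.5 CPM in KO against 255 CPM in WT, and in monocyte-like cells to 143 CPM in KO against 216 CPM in WT for T and 47.1 CPM in KO against 178 CPM in WT for NK. In myeloid cluster 0 the sums were 68.7 CPM in KO against 82 CPM in WT for T and 17.3 CPM in KO against 55.5 CPM in WT for NK, and in conventional dendritic cell 2-like cells 959 CPM in KO against 1151 CPM in WT for T and 161 CPM in KO against 332 CPM in WT for NK. In myeloid cluster 1 the T list ran the other way, at 545 CPM in KO against 434 CPM in WT, and the NK list did not, at 17.6 CPM in KO against 29.4 CPM in WT. Of the 11 T markers, 10 to 11 had a UMI in each of these libraries and classes, with Foxp3 at 0 in WT mature neutrophil-like and macrophage-like cells. Of the 8 NK markers 4 to 8 had one, and Ncr1 was at 0 in KO cells of 5 of the 6 classes. In myeloid cluster 2, where Bcl2 did not pass the fold, the T list summed to 152 CPM in KO against 139 CPM in WT. The NK list summed there to 51.8 CPM in KO against 95.2 CPM in WT. The part of T and NK RNA in the Bcl2 ratios was not tested. In macrophage-like cells the call was lost as a mean over cells, where the ratio was 0.949, and with thinned cells, where 1 lay inside the interval of 0.407. In conventional dendritic cell 2-like cells the ratio was 1.03 with doublets kept, and in cluster 9, which held most of that class in both libraries, Bcl2 stood at 17.2 CPM in KO against 19.9 CPM in WT with a ratio of 0.865 (95% interval 0.595 to 1.23).

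Pmaip1 was lower in KO cells of 3 monocytic classes. It stood at 27 CPM in KO against 59.1 CPM in WT cells of myeloid cluster 0, a ratio of 0.457 (95% interval 0.386 to 0.543), and at 18.8 CPM in KO against 46.5 CPM in WT cells of myeloid cluster 1, a ratio of 0.404 (95% interval 0.312 to 0.529). In monocyte-like cells it stood at 49.5 CPM in KO against 80.1 CPM in WT, a ratio of 0.618 (95% interval 0.502 to 0.756). Relative to the median gene of each class these log2 ratios were -0.97, -1.19 and -0.45. The 3 calls held under all 6 settings that could be run. Myeloid cluster 2 went the same way without passing the fold (0.782), and macrophage-like cells did not, with a ratio of 1.21 (95% interval 0.755 to 2.03). Bcl2l1 was lower in myeloid cluster 0 alone, at 5.67 CPM in KO against 13.9 CPM in WT cells (83 KO and 50 WT UMIs), a ratio of 0.406 (95% interval 0.283 to 0.589). Bax had a ratio under 1 in all of these classes, from 0.689 in myeloid cluster 0 to 0.922 in macrophage-like cells, and passed the fold in none of them. Mcl1 was level in myeloid clusters 0, 1 and 2, with ratios of 0.932, 1.01 and 0.997.

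The Bcl2a1 copies separated the monocytic clusters from each other. In macrophage-like cells, the Pf4, Apoe and C1qb cluster with 539 KO and 122 WT cells, the sum stood at 934 CPM in KO against 583 CPM in WT cells, a ratio of 1.6 (95% interval 1.47 to 1.75). In myeloid cluster 1 it stood at 1087 CPM in KO against 753 CPM in WT, a ratio of 1.44 (95% interval 1.36 to 1.53), just short of the fold. In myeloid cluster 0 it was 355 CPM in KO against 457 CPM in WT, a ratio of 0.777 (95% interval 0.735 to 0.822) on the other side of 1, and in myeloid cluster 2 it was 0.962. Counts assigned to Bcl2a1a showed the widest spread, with a ratio of 1.92 (95% interval 1.59 to 2.35) in myeloid cluster 1, 2.14 (95% interval 1.61 to 2.89) in macrophage-like cells and 0.638 (95% interval 0.536 to 0.762) in myeloid cluster 0. Macrophage-like cells also had more Mcl1, at 1215 CPM in KO against 769 CPM in WT, a ratio of 1.58 (95% interval 1.47 to 1.7), and more Bcl2l11, at 215 CPM in KO against 127 CPM in WT, a ratio of 1.68 (95% interval 1.41 to 2.03). Guardian and antagonist were thus both higher there. With classes taken from the WT library alone the Bcl2a1 sum had a ratio of 0.78 and Bcl2l11 one of 1.46, whereas Mcl1 stayed past the fold at 1.63. With thinned cells Mcl1 had 1.42 and Bcl2l11 1.43, neither past the fold. The mature neutrophil list summed to 24952 CPM in KO against 10024 CPM in WT macrophage-like cells, and the immediate early list to 8054 CPM in KO against 5125 CPM in WT. In myeloid cluster 1 these lists summed to 48468 CPM in KO against 32516 CPM in WT for neutrophil markers and 5427 CPM in KO against 9394 CPM in WT for immediate early genes. Their part in the Bcl2a1 and Mcl1 ratios was not tested.

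Among tumor lymphocytes, Bcl2 was higher in KO T-like cells, at 105 CPM in KO against 60.1 CPM in WT cells, a ratio of 1.75 (95% interval 1.62 to 1.9). It was seen in 33.8% of KO and 21.5% of WT T-like cells, and in 25.9% and 17.8% of those thinned to 4194 UMIs, against the shares in tumor myeloid cells given above. Median depths were 6068 UMIs in KO and 4984 UMIs in WT T-like cells. The ratio was past the fold in the Cd8 cluster (cluster 6), with 153 CPM in KO against 95.8 CPM in WT and a ratio of 1.6 (95% interval 1.42 to 1.81), and in the Cd4 cluster (cluster 19), with 108 CPM in KO against 64.9 CPM in WT and a ratio of 1.66 (95% interval 1.42 to 1.94). The Foxp3 cluster held 17.5 CPM in KO against 15.8 CPM in WT and the Trdc cluster 32.3 CPM in KO against 39 CPM in WT, both short of the fold, and whether clusters differ in this ratio was not tested. Cluster 6 held 552 KO and 798 WT cells and was the largest part of the KO class, whereas cluster 19, with 427 KO and 1596 WT cells, was the largest part of the WT class. Bcl2 kept its call under all 7 settings, including the one within clusters (1.59). Bcl2l1 was higher in the Cd8 cluster, at 87.7 CPM in KO against 44.3 CPM in WT, a ratio of 1.98 (95% interval 1.66 to 2.36). It was also higher in the Trdc cluster, at 58.8 CPM in KO against 29.3 CPM in WT, a ratio of 2.01 (95% interval 1.26 to 3.2). Over all T-like cells its ratio was 1.14. NK-like cells held 232 CPM in KO against 259 CPM in WT of Bcl2, a ratio of 0.897 (95% interval 0.822 to 0.977), and a Bcl2l11 ratio of 1.01 (95% interval 0.957 to 1.06). Cluster 18 of the NK-like cells had more Bcl2l1, at 55.8 CPM in KO against 34.1 CPM in WT, a ratio of 1.64 (95% interval 1.28 to 2.08). In conventional dendritic cell 2-like cluster 9 Bcl2l1 stood at 23.1 CPM in KO against 10.5 CPM in WT, a ratio of 2.21 (95% interval 1.55 to 3.12). Neutrophil RNA was more frequent in KO lymphocytes, the mature neutrophil list summing to 973 CPM in KO against 143 CPM in WT T-like and 777 CPM in KO against 340.2 CPM in WT NK-like cells. In KO mature neutrophil-like cells that list summed to 82267 CPM, with Bcl2 at 3.83 CPM and Bcl2l1 at 101 CPM. All 12 markers of that list had a UMI in T-like and NK-like cells, except Cxcr2 in WT NK-like cells. In T-like cells the NK list summed to 1424 CPM in KO against 584 CPM in WT, with all 8 markers seen in both libraries. That list summed to 2220.0 CPM in KO against 1205 CPM in WT in the Cd8 cluster and to 202 CPM in KO against 163 CPM in WT in the Cd4 cluster, where Ncr1 and Eomes were at 0 in KO cells. The macrophage list, with all 11 markers seen in both libraries, summed to 652 CPM in KO against 107 CPM in WT T-like cells. The part of neutrophil, NK and macrophage RNA in the Bcl2 and Bcl2l1 ratios of lymphocytes was not tested.

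**Figure D4:**
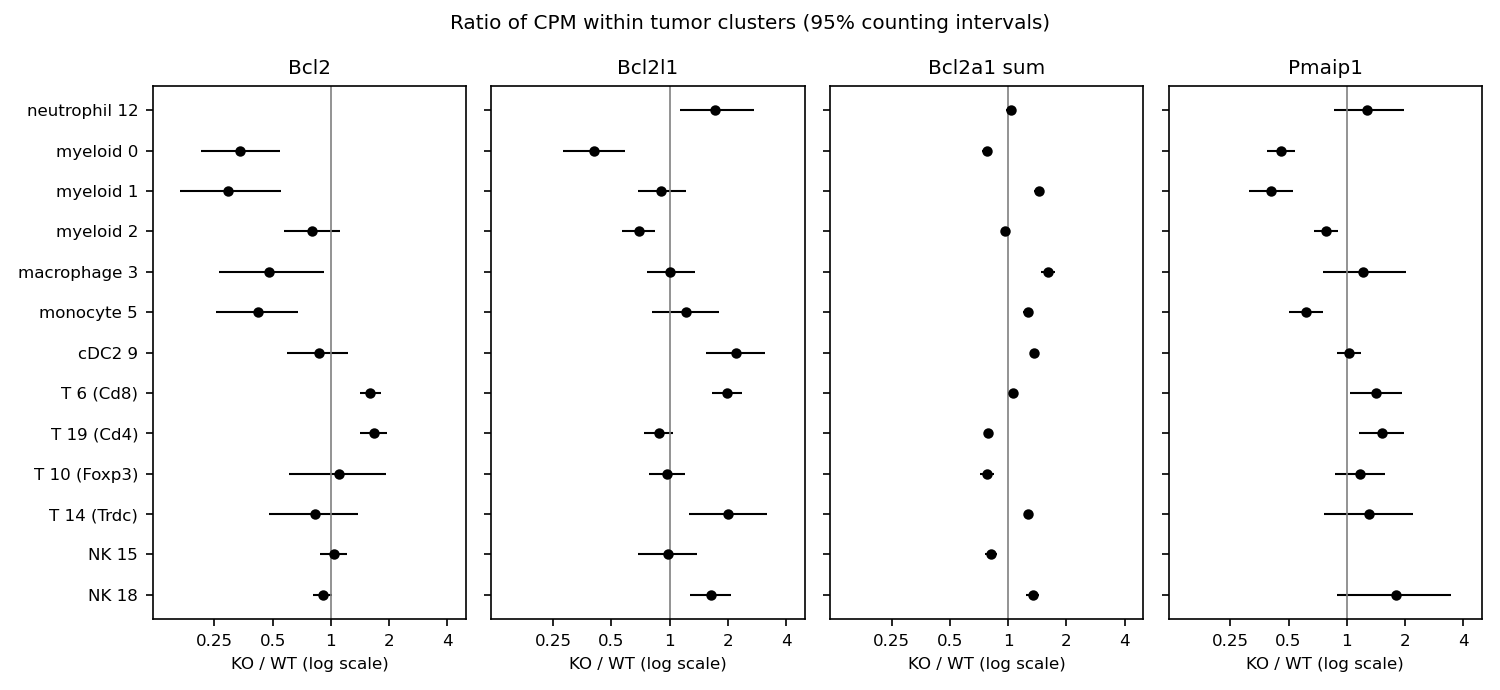
Ratio of CPM, KO over WT, on a log axis with 95% counting intervals for Bcl2, Bcl2l1, the Bcl2a1 sum and Pmaip1 (panels) inside tumor clusters with at least 100 cells in each library (rows); the vertical line is a ratio of 1 and points without 50 UMIs are left out. Bcl2 lies right of the line in the Cd8 and Cd4 T-like clusters and left of it in the monocytic clusters, and Pmaip1 is lowest in myeloid clusters 0 and 1.

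The split of Bcl2a1 counts between the copies differed more between cell classes than between genotypes in the 3 tumor classes given here. Tumor NK-like cells had 0.428% Bcl2a1a, 62.3% Bcl2a1b and 37.3% Bcl2a1d in KO and 0.314% Bcl2a1a, 61.4% Bcl2a1b and 38.3% Bcl2a1d in WT. Mature neutrophil-like cells had 13.7% Bcl2a1a, 69.9% Bcl2a1b and 16.4% Bcl2a1d in KO and 13.9% Bcl2a1a, 67.8% Bcl2a1b and 18.3% Bcl2a1d in WT. Conventional dendritic cell 1-like cells had 10.7% Bcl2a1a, 46.4% Bcl2a1b and 42.8% Bcl2a1d in KO and 10.7% Bcl2a1a, 45.5% Bcl2a1b and 43.7% Bcl2a1d in WT. Bcl2a1a was therefore nearly unseen in NK-like cells and took about as many counts as Bcl2a1d in tumor neutrophils. In bone marrow mature neutrophil-like cells of KO mice the split of 162 UMIs was 36.4% Bcl2a1a, 48.1% Bcl2a1b and 15.4% Bcl2a1d. A further copy, Bcl2a1c, gave 1 UMI in KO and 0 in WT bone marrow and 10 in KO and 8 in WT tumors. The antisense gene Gm10634, which overlaps Bcl2a1d, gave 3 and 0 UMIs in KO and WT bone marrow and 24 and 16 in KO and WT tumors, too few to change the Bcl2a1d counts there.

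The rest of the family and its pathways were read from lists of genes with known roles, given here as counts past the fold and medians beside those of all genes. Of 16 other BCL2 family genes, bone marrow mature neutrophil-like cells had 1 of 8 measured genes higher and 0 lower; the higher one was the effector Bak1, at 57.4 CPM in KO against 30.6 CPM in WT cells (ratio 1.87). That share is near the 12.8% of all genes higher in this class. Bone marrow immature neutrophil-like cells had 0 of 9 measured genes higher and 0 lower, where 6.74% of all genes were higher and 1.58% lower. In tumor mature neutrophil-like cells, where 6.26% of all genes were higher and 25.4% lower, 0 of 8 measured genes were higher and 3 lower. The median log2 ratio of the 8 was -0.59 against -0.33 for all genes. The lower genes were Bid, which links death receptors to mitochondria, at 9.24 CPM in KO against 25 CPM in WT cells (ratio 0.37), the BH3-only Bad at 8.57 CPM in KO against 20 CPM in WT cells (ratio 0.429), and Bcl2l13 at a ratio of 0.476. Bnip3, a hypoxia-induced relative, was higher in KO cells of 5 tumor classes, with ratios of 4.51 in monocyte-like, 2.94 in conventional dendritic cell 2-like, 2.88 in NK-like, 2.38 in T-like cells and 1.7 in myeloid cluster 2. Monocyte-like cells held it at 87.1 CPM in KO against 19.3 CPM in WT cells (ratio 4.51). The BH3-only Bbc3 was lower in bone marrow monocyte-like cells (0.616), tumor NK-like cells (0.534) and myeloid cluster 0 (0.543).

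Of 17 NF-kB target genes, a class of genes that inflammatory signals induce and to which Bcl2a1 belongs by its known control, tumor macrophage-like cells had 12 of 17 measured genes higher and 0 lower, with a median log2 ratio of 1.26 against -0.04 for all genes. Bcl2a1 itself was not on the list, and 8.95% of all genes were higher in macrophage-like cells. Myeloid cluster 1 had 11 of 17 measured genes higher and 0 lower (median 0.80 against -0.12), and mature neutrophil-like cells 13 of 17 measured genes higher and 1 lower (median 0.71 against -0.33). The shares of all genes higher were 4.94% in myeloid cluster 1 and 6.26% in mature neutrophil-like cells. Il1b and Cxcl2 are also on the mature neutrophil list. That list summed higher in KO macrophage-like cells and KO cells of myeloid cluster 1, as given above, and its part in these counts was not tested. In the neutrophil-like cells the signalling adaptor Traf1 stood at 841 CPM in KO against 373 CPM in WT cells (ratio 2.26) and the adhesion gene Icam1 at 531 CPM in KO against 233 CPM in WT cells (ratio 2.28), whereas the chemokine Cxcl1 stood at 215 CPM in KO against 501 CPM in WT cells (ratio 0.429). Myeloid cluster 0 had 2 of 17 measured genes higher and 2 lower (median -0.15 against -0.15), where 3.92% of all genes were higher and 10.8% lower. The Bcl2a1 ratios of these 4 classes, in the same order, were 1.6, 1.44, 0.998 and 0.777. With classes from the WT library alone the macrophage-like ratio was 0.78. Among other tumor classes, monocyte-like cells had 8 of 17 higher (all genes 5.69%), and T-like (6.13%) and conventional dendritic cell 2-like cells (5.76%) 6 of 17 each. The Bcl2a1 sum passed the fold in none of them, and in the latter classes it was not higher in KO cells. Whether Bcl2a1 follows the list was not tested. In bone marrow, immature neutrophil-like cells had 4 of 13 measured genes higher and 0 lower (median 0.30 against 0.21) and mature ones 4 of 14 measured genes higher and 0 lower (median 0.32 against 0.22). The shares of all genes higher were 6.74% in the immature and 12.8% in the mature class. Among the immature cells' higher genes were Il1b, at 13.1 CPM in KO against 5.8 CPM in WT cells (ratio 2.26), and the NF-kB regulator Nfkbiz, at 175 CPM in KO against 100 CPM in WT cells (ratio 1.75).

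Of 19 receptors and signals of survival cytokines, bone marrow immature neutrophil-like cells had 5 of 16 measured genes higher and 1 lower, with a median log2 ratio of 0.40 against 0.21, and mature ones 5 of 16 measured genes higher and 0 lower, with 0.52 against 0.22. For comparison, 6.74% of all genes were higher in the immature and 12.8% in the mature class. The higher genes included the common beta chain gene Csf2rb, at 166 CPM in KO against 96.9 CPM in WT cells (ratio 1.72) in the immature class, and the IL-3 receptor gene Il3ra, at 26.6 CPM in KO against 9.59 CPM in WT cells (ratio 2.77) in the mature class. The kinase gene Pim1, a target of these receptors, stood at 523 CPM in KO against 319 CPM in WT cells (ratio 1.64) of the mature class and had a ratio of 1.79 in granulocyte progenitor-like cells. In tumor mature neutrophil-like cells the same list had a median log2 ratio of 0.19 against -0.33 for all genes. There 0 of 17 measured genes were higher and 4 lower, a share near the 25.4% of all genes lower in that class. Among the lower ones were Cish, a feedback target of STAT5, at 36.3 CPM in KO against 94.8 CPM in WT cells (ratio 0.383), and Il7r, a lymphocyte receptor, at 8.87 CPM in KO against 49.9 CPM in WT cells (ratio 0.178). The T marker list stood at 31.3 CPM in KO against 331 CPM in WT in the same class, and its part in the Il7r value was not tested. In bone marrow T or NK-like cells Il7r stood at 105 CPM in KO against 266 CPM in WT cells (ratio 0.396).

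Lists of genes that act around the family's proteins were read in the same way. Among 8 regulators of MCL1 protein, bone marrow immature neutrophil-like cells had 2 of 8 measured genes higher and 0 lower, and mature ones 1 of 8 measured genes higher and 0 lower; Ier3 stood at 62.2 CPM in KO against 30.2 CPM in WT cells (ratio 2.06) of the immature and 201 CPM in KO against 103 CPM in WT cells (ratio 1.96) of the mature class. Of all genes, 6.74% were higher in the immature and 12.8% in the mature class. Tumor macrophage-like cells had 3 of 8 measured genes higher and 0 lower, with ratios of 1.99 for Ier3 and 1.76 for the ubiquitin ligase gene Huwe1. The share of all genes higher in that class was 8.95%. In tumor mature neutrophil-like cells Gsk3b, a kinase that marks MCL1 for breakdown, stood at 34.3 CPM in KO against 76.5 CPM in WT cells (ratio 0.449). Of 14 genes of the mitochondrial death pathway, these cells had 2 of 13 measured genes higher and 3 lower, where 25.4% of all genes were lower and 6.26% higher. Among them were Apaf1, the scaffold of the apoptosome, at 49 CPM in KO against 21.6 CPM in WT cells (ratio 2.27), the inhibitor of apoptosis Birc3 at 397 CPM in KO against 216 CPM in WT cells (ratio 1.84), and Diablo, which counters such inhibitors, at a ratio of 0.401. Of 11 death receptor genes and adaptors they had 2 of 8 measured genes higher and 2 lower, the lower share again near that of all genes, with Fas at 368 CPM in KO against 236 CPM in WT cells (ratio 1.56) and its initiator caspase gene Casp8 at a ratio of 0.532. Cflar, which encodes the inhibitor of that caspase, was higher in macrophage-like (2.19), monocyte-like (1.73) and conventional dendritic cell 2-like cells (1.65). Pmaip1 and Bax are p53 targets by their known control but were not on the list of 14 p53 targets read here. On that list myeloid cluster 0 had 0 of 11 measured genes higher and 3 lower, where 10.8% of all genes were lower. Macrophage-like cells had 2 of 10 measured genes higher and 0 lower, where 8.95% of all genes were higher. The ratios there were 2.18 for Cdkn1a and 1.95 for Mdm2. In bone marrow, immature neutrophil-like cells had 2 of 10 measured genes higher and 0 lower, Cdkn1a at 10.2 CPM in KO against 4.47 CPM in WT cells (ratio 2.28) and Btg2 at 152 CPM in KO against 76 CPM in WT cells (ratio 2.01). There 6.74% of all genes were higher. Bcl2l11 is a FOXO target by its known control but was not on the list of 9 FOXO targets read here. On that list tumor mature neutrophil-like cells had 1 of 6 measured genes higher and 1 lower, where 6.26% of all genes were higher and 25.4% lower. Klf2 had a ratio of 2.06, and Txnip stood at 241 CPM in KO against 591 CPM in WT cells (ratio 0.408).

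Profiles like those of the survival genes were looked for over the classes and libraries with at least 100 cells, as Pearson correlations of log2(CPM + 1), which are descriptions over profiles that share libraries and depth. Over 22 bone marrow profiles and 6761 genes, Mcl1 was most like Sidt2 (r = 0.956), Dazap2, Stk17b, Junb and Stk40 (r = 0.927). Bcl2 was most like Rasal3 (r = 0.897), Tespa1, Gpr174, Plekha5 and Runx3 (r = 0.857), and the Bcl2a1 sum most like Rap1gds1 (r = 0.844), Ptpn22, Trip11, Pitpnm1 and Gpr65 (r = 0.792). Over 21 tumor profiles and 4980 genes, Mcl1 was most like Etf1 (r = 0.959), Fbxl5, Riok3, Adprh and Zswim4 (r = 0.944). Bcl2 was most like Txk (r = 0.968), Xcl1, Dapk2, Prf1 and Il2rb (r = 0.944). The Bcl2a1 sum was most like Arhgap31 (r = 0.851), Traf1 (r = 0.792), Bcl2l1 (r = 0.789), Castor1 and Mmp25 (r = 0.723). In tumors a fellow survival gene was thus among the 5 profiles closest to that of A1.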

How the data were processed

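The authors deposited 10x Genomics UMI counts per gene and cell barcode, with no normalization; per the file headers, bone marrow matrices were written by software version 3.1.0 and tumor matrices by 6.0.2, whereas Cell Ranger 6.1.2 and Seurat 4.3.0 with mm10 are named per the submitters' processing notes. Feature lists differed between tissues, so tissues were not compared directly. Barcodes under 200 genes or above 10% mitochondrial UMIs were removed (scanpy 1.11.5), and doublets were removed per library (4.33% in KO and 5.31% in WT bone marrow, 8.52% in KO and 9.29% in WT tumor). In the WT tumor the automatic doublet threshold marked 0% of cells, so the expected rate was used there. Cells of a tissue were clustered together (2000 variable genes, 30 components, 15 neighbors, Leiden resolution 1) and named from fixed marker lists. A cluster with more markers of another class than its own among its leading 10 genes stayed unnamed.

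UMIs were summed per class and library and divided by the class total (CPM). Intervals are exact at 95% (Poisson for levels, Clopper-Pearson for shares, conditional binomial for ratios), cover counting error only, and PCR and sampling of mice are not in them. Where a library had no UMI, bounds used 3 UMIs in its class as the floor. Total depth was 51776813 (KO) and 32906493 (WT) UMIs in bone marrow and 111214201 (KO) and 102548178 (WT) UMIs in tumors. The calculation was tested on simulated counts. All 9 members are named in any class; from each pathway list up to 4 genes per class with the largest ratios among those with at least 100 UMIs over both libraries, and any other BCL2 family gene; and the 5 most similar profiles. Members and lists were chosen with earlier results of these data known, and the immediate early list after values were seen. Alternatives covered the total, doublets, thinning to 1559 UMIs (bone marrow) or 4194 UMIs (tumor), means over cells, classes from WT alone, cluster weights, a 5% mitochondrial limit, and UMI minimums of 200 or none.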

Additional observations from a re-analysis of the deposited data

Results flagged for a closer look

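Bax in mature neutrophil-like cells pointed in opposite directions in the 2 tissues: its KO over WT ratio was 1.67 in bone marrow and 0.518 in tumors, with both intervals leaving out 1. The difference between the tissues was not tested, since each tissue has 1 library per genotype and the tissues had different feature lists and software versions. The bone marrow ratio rested on 132 KO and 28 WT UMIs and lost its call under 4 of 7 alternatives (by the size of the fold in 3 and by the interval with thinned cells), whereas the tumor ratio, from 1170 KO and 102 WT UMIs, kept it under all 7. In that tumor class 25.4% of all genes were lower in KO cells, and the setting with thinned cells kept 14 WT cells. The T list summed there to 31.3 CPM in KO against 331 CPM in WT, and the NK list to 10.1 CPM in KO against 44.9 CPM in WT. The macrophage list went the other way, at 1365 CPM in KO against 1213 CPM in WT. The part of such RNA in the Bax ratio was not tested.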

How the results depend on the processing

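No paired analysis was possible because each group has 1 library, and for the same reason no library could be left out. In bone marrow, 10 ratios of single members passed the fold; 5 did with at least 200 UMIs, 6 with thinned cells and 6 within clusters at WT weights, and between 8 and 15 under the other settings. In tumors 20 passed; with classes from the WT library alone 9 did, where only 5 classes had a counterpart and those had 11 in the main count, and between 14 and 21 did under the other settings. Reversed on the log2 scale were Bcl2 in tumor conventional dendritic cell 2-like cells with doublets kept (0.038), and, with classes from the WT library alone, tumor macrophage-like Bcl2a1a (-0.47), Bcl2a1d (-0.77) and the Bcl2a1 sum (-0.36); the cause was not tested. Calls that held under every setting run for them included Pmaip1 (ratio 1.91 to 5.62) and the Bcl2a1 sum (2.10 to 3.31) in bone marrow mature neutrophil-like cells, Bcl2 in tumor T-like cells (1.59 to 1.81), Bax in tumor mature neutrophil-like cells (0.484 to 0.626), and Pmaip1 in myeloid clusters 0 and 1 and monocyte-like cells of tumors. Mcl1 kept its direction in bone marrow immature neutrophil-like cells (1.36 to 1.72). Depth limits the scarce members most: in bone marrow mature neutrophil-like cells Bcl2a1d had 25 KO and 3 WT UMIs and Bcl2 12 KO and 5 WT UMIs.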
